A study of Mus musculus with 8 samples.

Results

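The genes described here are the ligands and receptors of the classical axon guidance families: Eph receptors and ephrins, semaphorins with their plexin and neuropilin receptors, Slits and Robos, and netrins with Dcc and the Unc5 receptors. They were chosen by gene symbol alone, among the symbols that the array annotation gives to its probes, without the use of any measured value. The choice gave 69 genes of 34541, read by 101 of 55419 probes, and a gene with more than 1 probe (27 of the 69) was read from the probe whose mean was highest over the 8 arrays. There were 14 Eph receptors, 8 ephrins, 7 secreted semaphorins, 13 membrane-bound semaphorins, 11 plexins and neuropilins, 7 Slits and Robos, and 9 netrins, Dcc and Unc5 receptors.

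Each of 8 groups was measured on 1 single-colour Agilent mouse array, with RNA of 3 sets of experiments pooled before 50 ng was labelled, so there are no replicates and no p-value. Of the 5 cultures, 4 were sorted from K/l-EB5, a male embryonic stem (ES) cell line on a 129/Ola background whose Rax locus (a homeobox gene active in the early eye field and hypothalamus) drives green fluorescent protein (GFP). All cultures were neural differentiations of 10 days in vitro with the Wnt inhibitor IWR-1-endo at 5 µM from day 3. The sorted cells also received, 12 h after the inhibitor, either 10 ng/ml of Activin A, which signals through Activin/Nodal receptors, or 100 nM of SAG, which switches on Hedgehog signalling, and were gated on RAX::GFP into RAX-positive and RAX-negative cells. The Wi control was E14Tg2A, another male 129/Ola ES line, with the inhibitor alone and no sort named, so it differs from the sorted cells in line and handling as well as in the added factor. The 3 tissues (eye, cortex and diencephalon/hypothalamus) were dissected from 3 Sv129s6 embryos of mixed sex at E12.5. The cultures model these regions as single lines, and a dissected tissue holds every cell type in it.

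Guidance receptors sit on the growth cone, the moving tip of an axon, and turn contact with a ligand into attraction or repulsion. Many of the same genes act earlier, when boundaries form between regions of the neural tube and the optic vesicle, and in blood vessels, which use Slit, semaphorin, ephrin and netrin signals as well. In the developing visual system Eph receptors and ephrins map retinal axons onto their targets, and Slits, netrins and semaphorins steer them through the optic disc and the chiasm.

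Before the values, the probes themselves matter, because for 6 of the 69 genes (8.7%) the brightest probe contains a simple repeat, here at least 6 copies of a 2-base unit or 4 copies of a 3-base unit. The same holds for 1.21% of all genes. The probes are 60 bases long, and the 30 bases that hold most of the repeat are shown 5′ to 3′ for 5 of the genes, with the repeat in capitals. Beside them stand bases 31 to 60 of another probe of Epha5 and of Sema6d, in which no such repeat was found. In the files the mm9 positions are chr5:84487348-84487407 for the Epha5 repeat probe and chr5:84494886-84494945 for the other, chr2:124491609-124491668 and chr2:124490948-124491007 for those of Sema6d, chr16:21223165-21223224 for Ephb3 and chr1:36605998-36606057 for Sema4c. Whether these probes lie in coding or untranslated exons is not annotated in the files.
Epha5 repeat probe: acatcgaaatTGTGTGTGTGTGTGTGTGTG
Epha5 other probe: ctcagcactgtcttcctttgtactgatctc
Ephb3 repeat probe: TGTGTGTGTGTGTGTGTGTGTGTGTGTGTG
Sema4c repeat probe: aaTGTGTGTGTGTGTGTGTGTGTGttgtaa
Sema6d repeat probe: agaggggcgaGTGTGTGTGTGTGTGTGTGT
Sema6d other probe: tgccaccaaagccttcctttgttccgcaaa
Dcc repeat probe: GAAGAAGAAGAAGAAGAAGAAGAAGAAGAA

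The Dcc probe is a GAA repeat of 17 copies that the files place at chr7:68417162-68417221, while the other 2 probes of Dcc lie on chromosome 18. The sixth gene, Unc5a, has a probe with 6 copies of TA. Levels here are log2 signals relative to the 75th percentile of each array. On their repeat probes Epha5, Ephb3, Sema4c, Sema6d and Dcc each had a high and rather even level, with ranges over the 8 arrays of 1.16, 1.06, 1.20, 1.10 and 1.61 log2, against a median range of 2.86 for the 63 genes read from another probe. The Unc5a probe ranged over 3.70. Over all genes well above background on every array the median range was 1.37 for 378 genes with a repeat probe and 1.51 for the others.

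For Epha5, a receptor of ephrin-A ligands that takes part in axon mapping, the choice of probe decides the result. Its repeat probe gave 5.09 and 5.38 in RAX-positive and RAX-negative cells after activin, 4.76 and 4.49 after SAG, 4.47 in the Wi control, 4.59 in eye, 4.95 in cortex and 4.21 in diencephalon/hypothalamus. The other probe shown above read -3.20 and -4.74 in RAX-positive and RAX-negative cells after activin, -4.01 and -0.56 after SAG, 1.53 in the Wi control, -0.39 in eye, 0.72 in cortex and 0.29 in diencephalon/hypothalamus. A further probe without a repeat ranged from -3.57 in RAX-negative cells after activin to 3.63 in cortex. Both probes without a repeat were thus lowest in RAX-negative cells after activin and high in the Wi control and in cortex, while the repeat probe was highest in RAX-negative cells after activin. Between RAX-negative cells after activin and the Wi control the 3 probes gave differences from -6.70 to 0.91 log2. Values of Epha5, Ephb3, Sema4c, Sema6d and Dcc carry this limit. What the repeat probes measured was not tested.

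**Figure D1:**
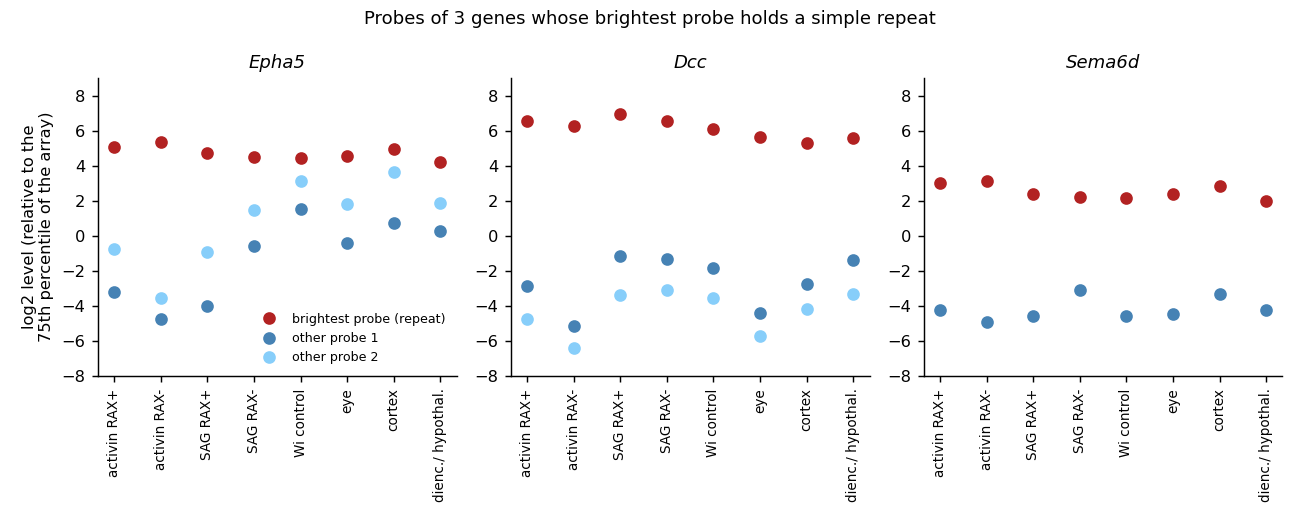
Log2 level (vertical axis, relative to the 75th percentile of the array) of every probe of Epha5, Dcc and Sema6d on the 8 arrays (horizontal axis), 1 point a probe and array. The brightest probe of each gene, which holds a simple repeat, stays within 1.16, 1.61 and 1.10 log2, while the other Epha5 probes range over 6.27 and 7.21.

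Of the 69 genes, 62 were well above background on all 8 arrays, and each array had 65 to 68 of them. Unc5d (2 arrays) and Ntn5 (1 array) were seldom measured. Between 59.5% and 79.3% of all spots were well above background, and 0 were saturated. RAX-positive cells after activin had the most such spots, and there 44% of 1354 odorant and vomeronasal receptor genes were also well above background, against 11.7% to 24.4% on the other arrays, so calls of low genes as higher on that array rest on weak signals. Rax was 5.67 and 2.50 in RAX-positive and RAX-negative cells after activin, 5.66 and 3.27 after SAG, -3.90 in the Wi control, 4.71 in eye, -3.11 in cortex and 3.33 in diencephalon/hypothalamus, which follows the gate and the tissue labels. Of the cortex markers 5 of 5 were at least 2-fold higher in cortex than in either other tissue, as were 4 of 5 diencephalon and hypothalamus markers in diencephalon/hypothalamus and 5 of 5 lens and 5 of 5 pigment cell markers in eye. Of the diencephalon and hypothalamus markers only Sim1 and Otp were highest there among all 8 arrays, while Nkx2-1, Foxb1 and Tcf7l2 were highest in a SAG population. The embryonic haemoglobin gene Hbb-y, a blood marker, was 7.62 to 8.04 in the tissues and -8.16 to -5.05 in the cultures.

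A difference between arrays is called here where the brighter array is well above background and the levels differ by at least 1 log2, which is 2-fold. Where the dimmer array is not well above background, its level is set no lower than the lowest signal that is, and the fold is written as "at least". The scanner's own error of such a difference was 0.20 log2 in the median for these genes, which leaves out the spread between cultures or embryos. In bulk RNA, fewer cells of a type and less RNA in each cell cannot be told apart. Over the 8 arrays the genes ranged from 0.61 log2 (Ephb6, a receptor without kinase activity) to at least 7.98 (Robo4, whose lowest array was not well above background), with a median of 2.78, levels not well above background being set as above. Slits and Robos had the highest median range of the families at 4.72, and ephrins the lowest at 2.18.

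**Figure D2:**
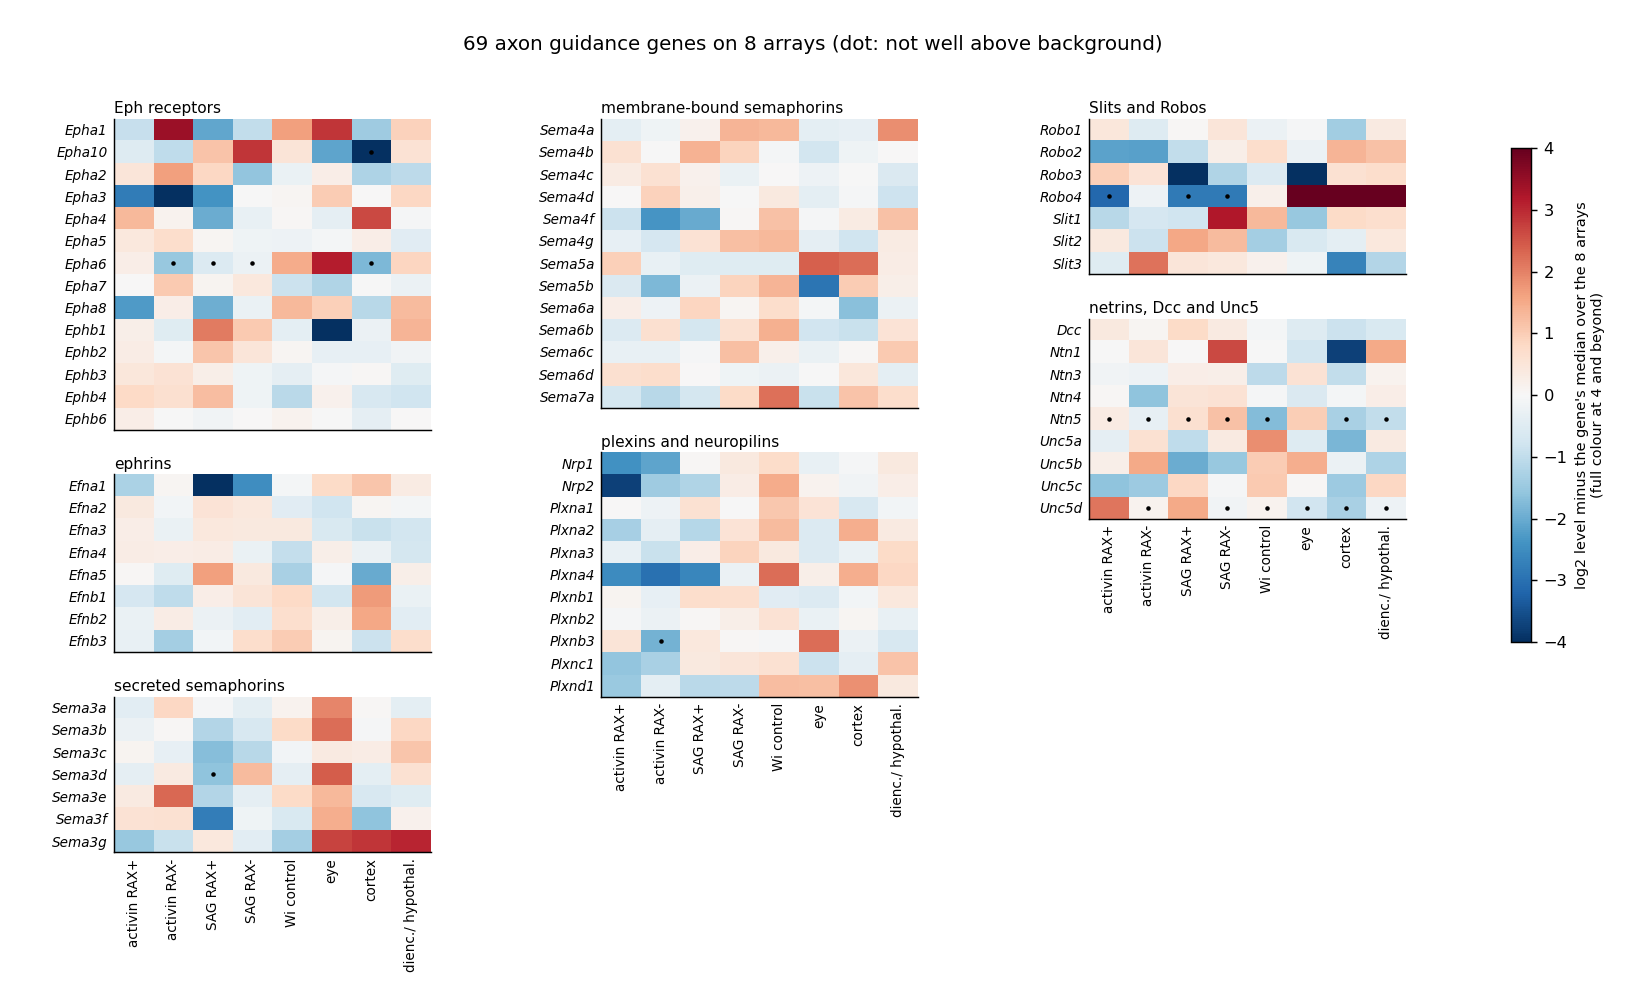
Heat map of the 69 genes by family (rows) on the 8 arrays (columns), coloured by log2 level minus the median of the gene over the 8 arrays, with full colour at 4 and beyond and a dot where the probe was not well above background. Robo4 is above its median in the 3 tissues, and Nrp2 and Plxna4 are below theirs in both activin populations.

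Among the Eph receptors, which are receptor tyrosine kinases for membrane-bound ephrins, Ephb1, Epha1, Epha3, Epha10 and Epha4 had the widest ranges, of 6.23, 5.51, 5.14, at least 5.13 and 4.63 log2. Epha1, a receptor known mainly from epithelia, had levels of -3.21 and 1.15 in RAX-positive and RAX-negative cells after activin, -4.36 and -3.26 after SAG, -0.63 in the Wi control, 0.57 in eye, -3.71 in cortex and -1.36 in diencephalon/hypothalamus. It was highest in RAX-negative cells after activin and in eye, and low in the other sorted cells and in cortex. Epha3, a receptor of ephrin-A ligands, had levels of -1.89 and -3.21 in RAX-positive and RAX-negative cells after activin, -1.48 and 0.91 after SAG, 1.00 in the Wi control, 1.93 in eye, 0.92 in cortex and 1.73 in diencephalon/hypothalamus. It was low in 3 of the 4 sorted populations and between 0.91 and 1.93 everywhere else.

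Epha4 binds ephrins of both classes and is known from cortex and boundary formation. Epha4 levels were 3.34 and 2.18 in RAX-positive and RAX-negative cells after activin, 0.08 and 1.75 after SAG, 2.09 in the Wi control, 1.69 in eye, 4.71 in cortex and 2.02 in diencephalon/hypothalamus. Cortex stood highest, followed by RAX-positive cells after activin, and RAX-positive cells after SAG stood lowest. Ephb1, which retinal axons use to turn away from the midline at the chiasm, had levels of 2.53 and 1.83 in RAX-positive and RAX-negative cells after activin, 4.37 and 3.36 after SAG, 1.91 in the Wi control, -1.86 in eye, 2.08 in cortex and 3.67 in diencephalon/hypothalamus. Eye was the only array below 0, and RAX-positive cells after SAG were highest.

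Epha10, a receptor whose kinase domain is inactive, was highest in RAX-negative cells after SAG at -0.95 and not well above background in cortex at -8.07. Its second probe ranged only from -5.13 to -3.68 and had another order, so differences of Epha10 depend on the probe. Epha6 was well above background on 4 arrays, highest in eye at -2.89, with a range of at least 3.70. Epha2 was highest in RAX-negative cells after activin at 1.83 and lowest in RAX-negative cells after SAG at -1.38.

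Among the ephrins, ligands that stay attached to the cell that makes them, the widest ranges were those of Efna1 and Efna5, which are held in the membrane by a lipid anchor, at 5.82 and 3.63 log2. Efna1 had levels of -0.99 and 0.35 in RAX-positive and RAX-negative cells after activin, -4.42 and -2.19 after SAG, 0.22 in the Wi control, 1.04 in eye, 1.40 in cortex and 0.60 in diencephalon/hypothalamus. The 3 tissues were highest, and both SAG populations were lowest. Efna5, a graded ligand of the retina and midbrain, had levels of 3.21 and 2.69 in RAX-positive and RAX-negative cells after activin, 4.79 and 3.57 after SAG, 1.88 in the Wi control, 3.12 in eye, 1.16 in cortex and 3.39 in diencephalon/hypothalamus. Here the SAG populations were highest, and cortex and the Wi control lowest, so that the SAG populations lay below the Wi control for Efna1 and above it for Efna5. Efnb1 and Efnb2, which span the membrane, were both highest in cortex, at 5.62 and 4.70.

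Of the secreted semaphorins, which mostly repel axons through neuropilins, Sema3f (a ligand of Nrp2) had levels of 3.11 and 3.15 in RAX-positive and RAX-negative cells after activin, -0.23 and 2.37 after SAG, 1.92 in the Wi control, 4.00 in eye, 0.93 in cortex and 2.71 in diencephalon/hypothalamus. Eye was highest, and RAX-positive cells after SAG were lowest and the only array below 0. Sema3a, the ligand of Nrp1, was 1.41 in eye and between -0.96 and 0.28 on the other arrays. Sema3e, which binds Plxnd1 directly, was highest in RAX-negative cells after activin at -0.09 and lowest in RAX-positive cells after SAG at -3.57. Sema3g was -0.51, -0.36 and -0.16 in eye, cortex and diencephalon/hypothalamus and between -4.72 and -2.80 in the cultures. The second probe of Sema3g ranged only from -5.68 to -4.63.

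Among the membrane-bound semaphorins Sema5b, which carries thrombospondin repeats, had levels of 0.83 and -0.38 in RAX-positive and RAX-negative cells after activin, 1.17 and 2.29 after SAG, 2.76 in the Wi control, -1.50 in eye, 2.44 in cortex and 1.65 in diencephalon/hypothalamus. It was lowest in eye, next lowest in RAX-negative cells after activin and highest in the Wi control, and 3 probes of the gene shared this order for the lowest 2 arrays. Sema5a, its close relative, was 3.29 in eye and 3.12 in cortex and between 0.41 and 1.83 elsewhere. Sema7a, which has a lipid anchor, was highest in the Wi control at 2.30 and lowest in RAX-negative cells after activin. Sema4f was highest in the Wi control and in diencephalon/hypothalamus, both at -1.14, and lowest in RAX-negative cells after activin at -4.70.

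The semaphorin receptors were led by Nrp2, the neuropilin that binds Sema3f. Nrp2 had levels of 0.19 and 2.48 in RAX-positive and RAX-negative cells after activin, 2.72 and 4.22 after SAG, 5.40 in the Wi control, 4.05 in eye, 3.77 in cortex and 4.19 in diencephalon/hypothalamus. RAX-positive cells after activin stood lowest, 2.29 below the next array, and the Wi control highest. Plxna4, a plexin that signals with neuropilins and for class 6 semaphorins, had levels of -2.05 and -2.51 in RAX-positive and RAX-negative cells after activin, -2.13 and 0.24 after SAG, 2.70 in the Wi control, 0.69 in eye, 1.93 in cortex and 1.28 in diencephalon/hypothalamus. Both activin populations and RAX-positive cells after SAG were below -2, and all other arrays were above 0. A second Plxna4 probe was well above background on 3 arrays. Nrp1 was lowest in the activin populations at -3.99 and -3.68 and between -1.86 and -0.83 elsewhere. Plxnd1 was 2.11 to 3.56 in the Wi control and the tissues and 0.24 to 1.35 in the sorted cells. Plxnb2 had a range of only 0.85.

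Robo3, a divergent Robo receptor that commissural axons need to cross the midline, had levels of 2.10 and 1.71 in RAX-positive and RAX-negative cells after activin, -3.05 and -0.05 after SAG, 0.60 in the Wi control, -4.08 in eye, 1.76 in cortex and 1.86 in diencephalon/hypothalamus. Eye and RAX-positive cells after SAG were far below the other arrays, and a second probe of the gene gave the same lowest pair, at -6.08 and, not well above background, -5.95. Robo4, the Robo of endothelial cells, had levels of -6.38 and -3.44 in RAX-positive and RAX-negative cells after activin, -6.09 and -6.08 after SAG, -3.06 in the Wi control, 1.17 in eye, 1.90 in cortex and 0.93 in diencephalon/hypothalamus. It was above 0 in the tissues alone and not well above background in 3 of the sorted populations. The probes of both genes lie on chromosome 9 in the files, and the genes had different orders over the arrays. Slit1, a secreted Robo ligand, had levels of -0.55 and -0.13 in RAX-positive and RAX-negative cells after activin, -0.24 and 3.76 after SAG, 1.84 in the Wi control, -0.96 in eye, 1.31 in cortex and 1.24 in diencephalon/hypothalamus. Slit1 was highest in RAX-negative cells after SAG, and below 0 in the other sorted cells and in eye. Slit3 was highest in RAX-negative cells after activin at 1.33 and lowest in cortex at -3.51.

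Ntn1, the floor plate attractant, had levels of 0.72 and 1.20 in RAX-positive and RAX-negative cells after activin, 0.74 and 3.37 after SAG, 0.70 in the Wi control, -0.01 in eye, -3.00 in cortex and 2.26 in diencephalon/hypothalamus. RAX-negative cells after SAG and diencephalon/hypothalamus were highest and cortex lowest, and a second probe placed these same 3 arrays at -1.82, -3.35 and -8.30, with cortex not well above background. Among the repulsive netrin receptors, Unc5b (known also from vessel sprouts) had levels of 2.38 and 3.66 in RAX-positive and RAX-negative cells after activin, 0.17 and 0.62 after SAG, 3.15 in the Wi control, 3.59 in eye, 1.90 in cortex and 0.91 in diencephalon/hypothalamus. It was high in RAX-negative cells after activin, in eye and in the Wi control, and lowest in both SAG populations. Dcc, the attractive netrin receptor, read 5.33 to 6.94 on its repeat probe and -5.13 to -1.17 and -6.43 to -3.08 on the other 2, which were lowest in RAX-negative cells after activin and in eye.

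**Figure D3:**
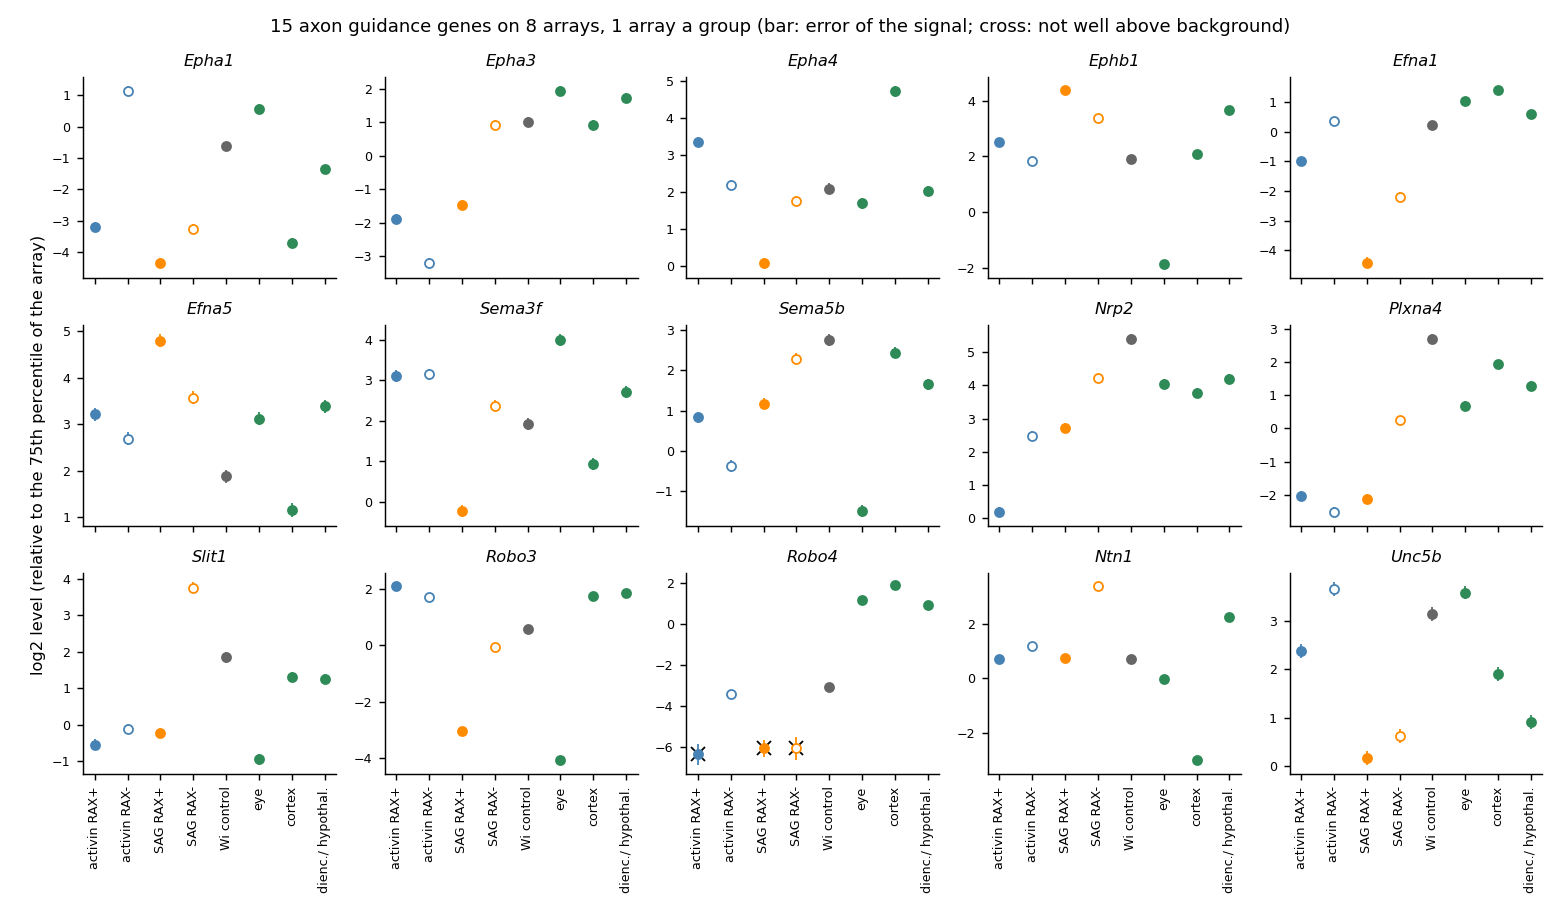
Log2 level (vertical axis, relative to the 75th percentile of the array) of 15 genes on the 8 arrays (horizontal axis), 1 point an array, with the scanner's error of the signal as a bar, open points for RAX-negative cells and a cross where the probe was not well above background. Robo3 is low in eye at -4.08 and in RAX-positive cells after SAG at -3.05, and Efna1 is lowest in both SAG populations.

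The first question of the design is what separates RAX-positive from RAX-negative cells. After activin, RAX-negative cells had more Epha1 (20.4-fold), Slit3 (6.23-fold), Epha8 (5.67-fold), Robo4 (at least 5.63-fold), Nrp2 (4.89-fold) and Sema3e (3.81-fold). RAX-positive cells had more Ntn4 (3.14-fold), a netrin of basement membranes, Sema4f (2.83-fold), Epha3 (2.50-fold), Slit2 (2.37-fold), Sema5a (2.36-fold) and Sema5b (2.31-fold). In all, 8 of 68 genes were higher and 13 lower in RAX-positive cells, against 10.7% of all genes higher and 6.11% lower, so 11.8% of the guidance genes were higher and 19.1% lower. Their median difference was 0.05 log2 and that of all genes 0.13. Among genes well above background on both arrays, 8 of 64 guidance genes were higher and 12 lower, beside 6.04% and 6.41% of all genes. The share of all genes called higher thus depended on weak signals. Scaling to the median instead of the 75th percentile shifted all genes by -0.40 and left 2 higher and 17 lower, where 4.75% of all genes were higher and 10.3% lower, and the median of the guidance genes became -0.34. Under that scaling Epha3, Epha4, Slit2, Sema5a and Sema5b were no longer called. The Sema4f call was kept there but lost under 4 of the 8 alternatives. Epha3 was also lost in the authors' value table, and Epha3 and Ntn4 with normexp background correction and quantile normalization. Robo4 was lost with detection above the receptor genes. Markers of other cells differed alongside: 7 of 10 pluripotency markers were lower in RAX-positive cells (median -4.08 log2, summed log2 level 3.90 against 6.49), as were 5 of 5 endoderm markers (median -3.62, summed level 0.75 against 4.47) and 6 of 9 mesenchyme markers (median -1.82, summed level 2.67 against 4.14). Of 13 neuron markers 1 was higher and 3 were lower. The part of these cells in the result was not tested.

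After SAG the gate went mostly one way. RAX-positive cells had less Slit1 (16.0-fold), Robo3 (7.98-fold), Sema3d (at least 7.31-fold), Ntn1 (6.22-fold), Sema3f (6.05-fold), Epha3 (5.22-fold) and Plxna4 (5.20-fold) than RAX-negative cells. They had more Epha2 (5.33-fold), Ephb4 (2.61-fold), a receptor of Efnb2 in veins, Efna5 (2.33-fold) and Ephb1 (2.01-fold). The Ephb1 call was lost with quantile normalization, and the Sema3d call with normexp background correction and quantile normalization. Of 66 genes 4 were higher, beside 4.17% of all genes, and 22 were lower (33.3%), beside 10.6% of all genes, with medians of -0.22 log2 for the guidance genes and 0.02 for all genes. By family, 6 of 13 membrane-bound semaphorins, 5 of 13 Eph receptors, 3 of 6 Slits and Robos, 3 of 11 plexins and neuropilins and 2 of 7 secreted semaphorins were lower, and every higher gene was an Eph receptor or an ephrin. No semaphorin, plexin, neuropilin, Slit or Robo was called higher under any of the 8 alternatives. Neuron markers moved alongside: 7 of 13 were lower in RAX-positive cells, with a median of -1.19 log2, and their summed log2 level was 6.72 against 7.91. All 13 neuron markers were well above background on both arrays. Mesenchyme markers were lower as well, 7 of 9 with a median of -1.89, and so were 6 of 10 pluripotency markers with a median of -1.35. The part of these cells in the result was not tested.

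Across both treatments 66 genes could be compared. Lower in RAX-positive cells each time were Efna1, Epha1, Epha8, Nrp2 and Sema6b, 5 genes (7.58%) beside 2.56% of all genes. None was higher both times, where all genes gave 0.889%, and 3.45% of all genes were called the same way in either direction. Opposite calls were made for 5 genes (7.58%), beside 1.57% of all genes. For 4 of them RAX-positive cells were higher after activin but lower after SAG (6.06%, beside 1.43% of all genes). These were Epha3 with differences of 1.32 and -2.38, Epha4 with 1.16 and -1.67, Sema4f with 1.50 and -2.06, and Sema5b with 1.21 and -1.12. Epha2 alone went the other way, with -1.14 after activin and 2.41 after SAG (1.52%, beside 0.136% of all genes). Epha5 would join these 4 if read from a probe without a repeat. The group of 4 depended on the processing: median scaling kept Sema4f alone, normexp background correction with quantile normalization Epha4 alone, and the authors' value table Epha4 and Sema5b. Epha2 kept its opposite calls under all 8 alternatives. Of the 5 genes lower both times, Efna1 was called so under all 8 alternatives. The Epha1 call after SAG was lost under 4 of the 8, among them median scaling and the authors' value table. With normexp background correction and quantile normalization, Epha8 was lost after SAG and Sema6b after activin. Nrp2 was lost after SAG with the mean over probes. Each population is 1 array, and gate and slide column cannot be told apart, since column 1 of the slide held both RAX-positive arrays and column 2 both RAX-negative ones.

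**Figure D4:**
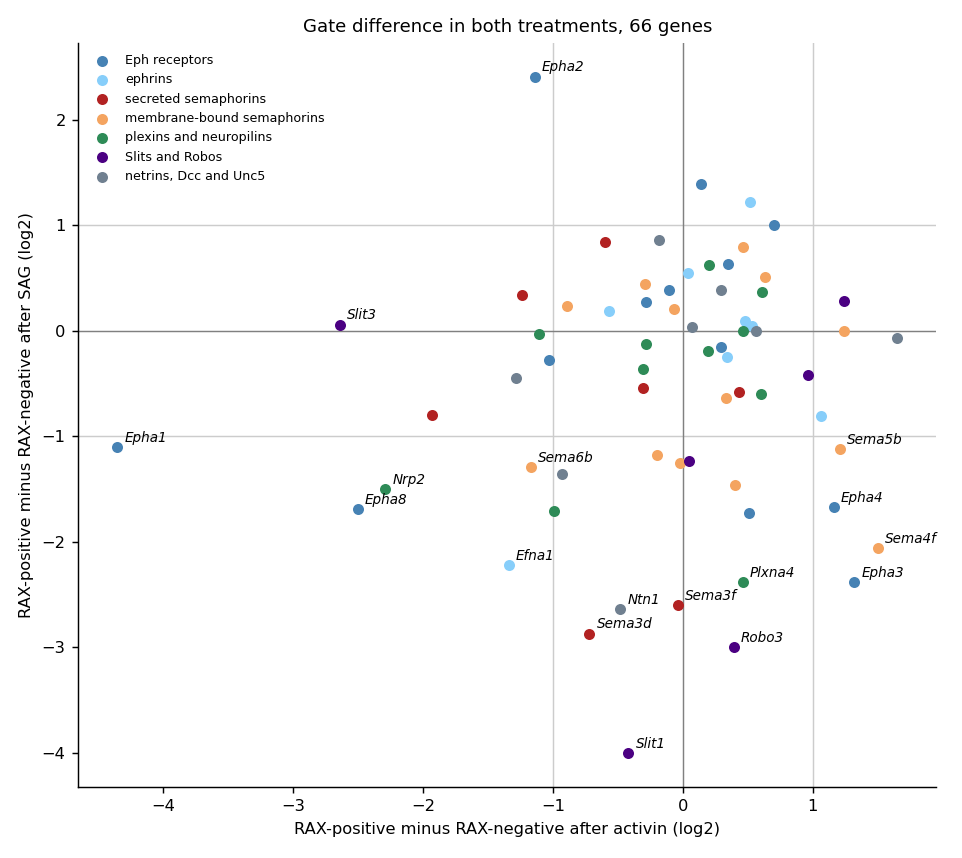
Difference between RAX-positive and RAX-negative cells in log2 after activin (horizontal axis) and after SAG (vertical axis) for 66 guidance genes, 1 point a gene, coloured by family, with grey lines at 1 and -1. Epha2 lies alone at upper left at -1.14 and 2.41, and Epha3, Epha4, Sema4f and Sema5b lie at lower right.

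Activin and SAG cells can also be compared within a gate. Among RAX-positive cells, activin went with more Robo3 (35.4-fold), Efna1 (10.7-fold), Sema3f (10.1-fold), Epha4 (9.57-fold), Unc5b (4.63-fold) and Sema3c (3.52-fold). SAG went with more Nrp2 (5.78-fold), Nrp1 (5.51-fold), Unc5c (5.43-fold), Plxnc1 (3.88-fold), Sema3g (3.79-fold) and Ephb1 (3.58-fold). The secreted semaphorins had 4 of 7 members higher after activin (Sema3c, Sema3d, Sema3e and Sema3f) and 1 lower, whereas 3 of 11 plexins and neuropilins were lower and 0 higher. In all, 11 of 67 genes were higher after activin, beside 18.7% of all genes, and 10 were lower (14.9%), beside 6.20%, with medians of -0.19 and 0.29 log2. Among genes well above background on both arrays, 10 of 65 guidance genes were higher, beside 10.9% of all genes. There 10 were lower, beside 6.67%, so the share of all genes called higher depended on weak signals. Median scaling shifted all genes by -0.20 and gave 9 higher and 14 lower, beside 14.4% and 8.84% of all genes, so that lower calls then outnumbered higher ones. Both Robo3 probes were higher after activin, by 5.15 and at least 4.78 log2, whereas the second Sema3g probe differed by 0.42 in the other direction. Neuron markers differed here as well, with 11 of 13 lower after activin and a median of -1.56 log2, while 4 of 5 endoderm, 4 of 5 pigment cell and 4 of 8 mesenchyme markers were higher. Their part in the result was not tested.

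Among RAX-negative cells, activin went with more Epha1 (21.1-fold), Epha2 (9.30-fold), Unc5b (8.22-fold), Sema3e (6.38-fold), Efna1 (5.84-fold) and Robo4 (at least 3.98-fold, and not called with normexp background correction and quantile normalization or with detection above the receptor genes). SAG went with more Epha3 (17.3-fold), Slit1 (14.8-fold), Epha10 (14.6-fold), Plxna4 (6.76-fold), Sema5b (6.38-fold) and Nrp1 (5.69-fold). There were 9 higher genes of 66 after activin, beside 13% of all genes, and 23 lower (34.8%), beside 14.8%, with medians of -0.46 and 0.05 log2. Lower after activin were 6 of 13 membrane-bound semaphorins and 6 of 11 plexins and neuropilins, with 0 higher in either family. Median scaling shifted all genes by 0.34 and gave 20 higher and 22 lower, where the shares of all genes became 22.9% higher and 9.76% lower, with 3 membrane-bound semaphorins and 1 plexin then called higher. Sema5b was lower on all 3 of its probes, with differences of -2.69 to -2.53 log2. The second Epha10 probe differed by only -0.64. Beside these values, 11 of 13 neuron markers were lower after activin with a median of -2.87 log2, and 8 of 10 pluripotency markers (Pou5f1 4.06 against -3.64) and 4 of 5 endoderm markers were higher. Their part in the result was not tested. Both activin arrays lay at position 1 of their slide column and both SAG arrays at position 2, so the added factor and the position cannot be told apart.

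Each sorted population was next set against the Wi control, the same single array in 4 comparisons. RAX-positive cells after activin had less Nrp2 (37.0-fold), Plxna4 (27.0-fold), Epha8 (11.7-fold), Nrp1 (8.95-fold), Sema7a (7.44-fold) and Epha3 (7.41-fold), and more Unc5d (at least 3.98-fold), Ephb4 (3.65-fold) and Slit2 (3.36-fold). The Unc5d call was lost with quantile normalization, with normexp background correction and quantile normalization, and in the authors' value table. Of 68 genes 9 were higher, beside 30% of all genes, and 26 were lower (38.2%), beside 13.4%, with medians of -0.47 and 0.39 log2. With quantile normalization 17.6% of all genes and 6 guidance genes were called higher, and with normexp background correction and quantile normalization together 8.04% and again 6. RAX-negative cells after activin had less Plxna4 (37.1-fold), Epha3 (18.5-fold), Sema4f (11.8-fold), Sema7a (9.83-fold) and Sema5b (8.83-fold), and more Slit3 (4.02-fold), Epha7 (3.79-fold) and Epha2 (3.73-fold). Here 9 of 67 were higher, beside 18.9% of all genes, and 23 lower (34.3%), beside 17%, with medians of -0.22 and 0.04 log2. Plexins and neuropilins had 7 and 8 of 11 members lower in these 2 comparisons, with medians of -2.20 and -1.62 log2, and 0 higher under every alternative. The second Plxna4 probe was not well above background in either activin population, so it gives no value beside -4.75 and -5.21 log2. For Plxna2 a second probe, which the files place on chromosome 13 and not on chromosome 1, gave 0.48 and 0.52 in place of -2.62 and -1.63. Between RAX-negative cells after activin and the Wi control the 3 probes of Epha7 gave differences from -0.03 to 1.92 log2, so the Epha7 fold depends on the probe.

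RAX-positive cells after SAG had more Slit2 (7.64-fold), Efna5 (7.49-fold), Ephb1 (5.49-fold) and Ephb4 (4.90-fold) than the Wi control, and less Plxna4 (28.6-fold), Efna1 (24.9-fold), Epha1 (13.2-fold), Robo3 (12.5-fold) and Epha8 (9.42-fold). Of 68 genes 12 were higher, beside 20.8% of all genes, and 27 lower (39.7%), beside 19.3%, with medians of -0.28 and 0.07 log2. Among the lower genes were 5 of 7 secreted semaphorins, with a family median of -1.60 log2. RAX-negative cells after SAG had more Ntn1 (6.35-fold), Slit2 (6.29-fold), Epha10 (5.06-fold) and Slit1 (3.80-fold), and less Epha1 (6.15-fold), Unc5b (5.75-fold), Plxna4 (5.49-fold) and Efna1 (5.34-fold). There 10 of 67 were higher, beside 17.4% of all genes, and 18 lower (26.9%), beside 14.2%, with medians of -0.14 and 0.05 log2. Both Ntn1 probes were higher, by 2.67 and 2.87 log2. Neuron markers were lower than in the Wi control in 12, 10 and 7 of 13 cases in RAX-positive and RAX-negative cells after activin and RAX-positive cells after SAG, and in 1 of 13 in RAX-negative cells after SAG. Cortex markers were lower in 4, 5, 5 and 5 of 5 cases in the same order of populations, with medians of -6.73 to -6.28 log2. Pluripotency markers were lower in 6, 3, 7 and 7 of 10, with medians of -5.19, -0.58, -5.65 and -3.11 log2. In RAX-negative cells after activin 5 of 5 endoderm and 6 of 9 mesenchyme markers were higher, and in RAX-positive cells after SAG 5 of 5 and 7 of 9 were lower. The part of these cells in the results was not tested. All 4 comparisons share the control array, which was alone on its slide, so line, sort, slide and added factor cannot be told apart in them.

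**Figure D5:**
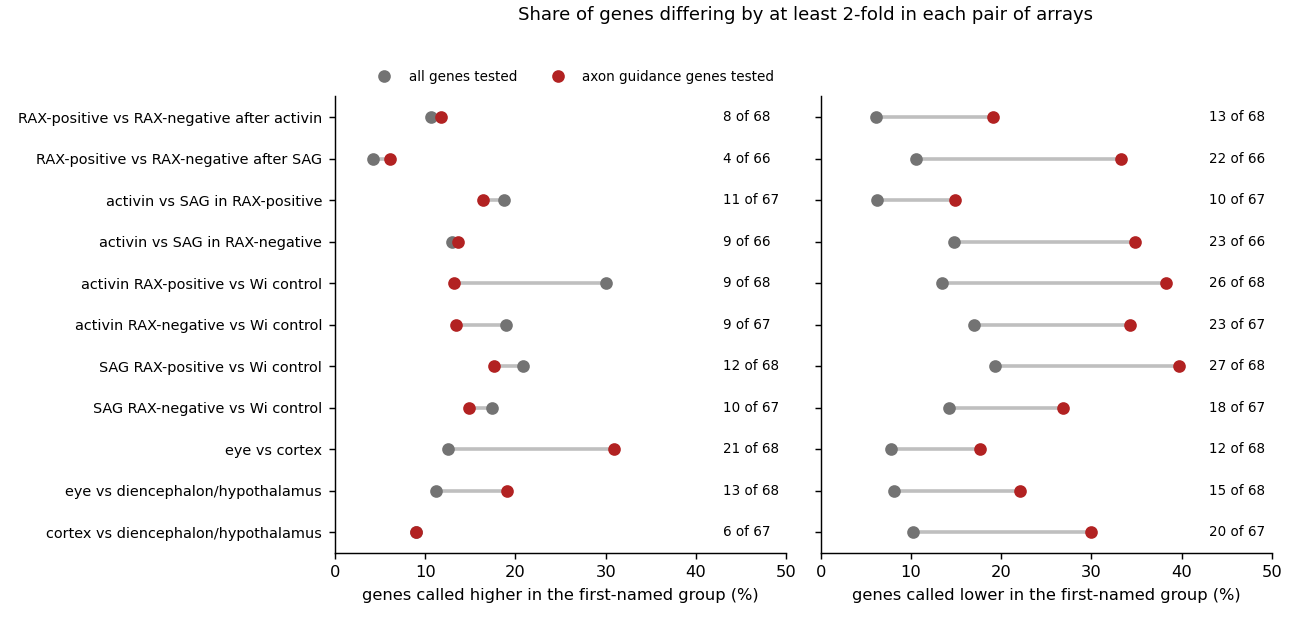
Percent of guidance genes (red) and of all genes (grey) called higher (left) or lower (right) in the first-named group of each of the 11 pairs of arrays, with the number of guidance genes called of those tested at the right of each panel. In RAX-positive against RAX-negative cells after SAG 33.3% of guidance genes and 10.6% of all genes were lower.

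The 3 tissues were compared with each other in turn. Eye had more Epha1 (19.4-fold), Epha6 (at least 9.11-fold), Sema3f (8.40-fold), Ntn1 (7.94-fold) and Sema3d (6.99-fold) than cortex, and less Robo3 (57.0-fold), Ephb1 (15.4-fold), Sema5b (15.4-fold), Epha4 (8.07-fold) and Efnb1 (5.38-fold). Of 68 genes 21 were higher in eye (30.9%), beside 12.5% of all genes, and 12 lower (17.6%), beside 7.78%, with medians of 0.04 and 0.00 log2. Median scaling shifted all genes by -0.46 and gave 17 higher and 16 lower, beside 7.5% and 20.9% of all genes, with a median of -0.43 for the guidance genes. Of the secreted semaphorins 5 of 7 (Sema3a, Sema3b, Sema3d, Sema3e and Sema3f) were higher in eye, with a family median of 1.93 log2, and the count was 5 under all 8 alternatives as well. Of the netrins and their receptors 5 of 8 were higher in eye. Robo3 was lower on both of its probes, with differences of -4.34 and -5.83 log2.

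Against diencephalon/hypothalamus, eye had more Plxnb3 (7.25-fold), Unc5b (6.41-fold), Sema3a (5.12-fold), Epha6 (4.81-fold) and Sema5a (4.31-fold), and less Robo3 (61.2-fold), Ephb1 (46.4-fold), Sema5b (8.93-fold), Epha10 (6.32-fold) and Ntn1 (4.83-fold). The calls of Plxnb3, Epha6 and Epha10, all with weak signals, were lost with normexp background correction and quantile normalization. The second probe of Epha10 differed by 0.42 in the other direction. There were 13 higher genes of 68 (19.1%), beside 11.2% of all genes, and 15 lower (22.1%), beside 8.11%, with medians of -0.22 and 0.19 log2. The same 5 secreted semaphorins were higher in eye (median 1.39 log2), and 6 of 13 membrane-bound semaphorins were lower (Sema4a, Sema4f, Sema5b, Sema6b, Sema6c and Sema7a). Neuron markers were lower in eye than in diencephalon/hypothalamus, 11 of 13 with a median of -2.91 log2, and lower than in cortex in 8 of 13 with a median of -1.92. Mesenchyme markers were higher in eye in 5 of 9 in both comparisons. The part of the mix of cells was not tested.

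Cortex had more Epha4 (6.41-fold), Efnb2 (3.93-fold), Efnb1 (3.90-fold), Sema5a (3.80-fold), Plxnd1 (2.74-fold) and Plxna2 (2.13-fold, and not called under 4 of the 8 alternatives) than diencephalon/hypothalamus, and less Ntn1 (38.3-fold), Epha10 (at least 7.18-fold), Epha8 (5.15-fold), Epha1 (5.10-fold), Unc5c (4.87-fold) and Efna5 (4.70-fold). Of 67 genes 6 were higher (8.96%), beside 9.04% of all genes, and 20 lower (29.9%), beside 10.2%, with medians of -0.25 and 0.07 log2. Median scaling shifted all genes by 0.31 and gave 13 higher and 16 lower, beside 18.2% and 7.30% of all genes, with a median of 0.06 for the guidance genes. Ntn1 was lower on both of its probes, with a difference of -5.26 log2 on the first and, as a bound, -2.72 on the second, which was not well above background in cortex. The second probe of Plxna2 was -0.98 where the first was 1.09, and that of Epha10 was 0.61 in the other direction. Neuron markers were lower in cortex in 8 of 13, with a median of -1.57 log2.

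Set as a whole against the 5 cultures, the tissues shared few guidance genes. Every tissue lay above every culture for Efna1, Robo4, Sema3c and Sema3g, 4 of 69 genes (5.80%) beside 4% of all genes. Every tissue lay below every culture for Dcc, Efna3, Ephb2 and Sema4d, again 4 (5.80%), beside 6.94% of all genes. Both shares are close to those of all genes. The Dcc result is that of the GAA repeat probe alone, and on the other Dcc probes the tissues lay within the range of the cultures. Efna1, Sema3c and Sema3g kept their place under all 8 alternatives. On the second probe of Sema3c, however, cortex (-3.51) lay below RAX-positive cells after activin (-3.34). Likewise, cortex (-4.79) lay below the Wi control (-4.76) on the second probe of Sema3g. The gaps were small for Efna1 (lowest tissue 0.60, highest culture 0.35) and Sema3c (0.58 and 0.38) and wide for Robo4 (0.93 and -3.06) and Sema3g (-0.51 and -2.80). Among the genes lower in the tissues, gaps were smaller still for Sema4d (highest tissue 0.17, lowest culture 0.18) and Ephb2 (-0.97 and -0.88). Sema4d was lost with median scaling. On its second probe diencephalon/hypothalamus (-3.74) lay above RAX-negative cells after SAG (-3.84). The second probe of Efna3 read -4.28 both in cortex and in RAX-positive cells after SAG. Endothelial markers were well above background in 7 of 7 cases in each tissue and in 6 or 7 in each culture, with median levels of 0.78 to 1.45 in the tissues and -3.54 to -1.74 in the cultures. Their summed log2 level was 4.34 to 5.10 in the tissues and 2.66 to 4.38 in the cultures. Cortex had the highest Robo4 of the tissues, and also the highest level of 6 of the 7 endothelial markers, the exception being Kdr, which was lowest there at 0.70. The part of vessels in the Robo4 values was not tested.

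Downstream of these receptors, 35 cytoplasmic effectors and 22 other guidance ligands, receptors and adhesion partners were read as well. In RAX-positive against RAX-negative cells after activin 2 of 35 effectors were higher (5.71%, beside 10.7% of all genes) and 0 lower (beside 6.11%). The higher ones were led by Srgap3 (1.65 log2), a partner of Robo receptors. After SAG 1 was higher (2.86%, beside 4.17% of all genes) and 3 were lower (8.57%, beside 10.6%), led by Vav3 (-3.01 log2). Activin against SAG in RAX-negative cells gave 3 higher (8.57%, beside 13% of all genes) and 11 lower (31.4%, beside 14.8%). Srgap3 was at -3.09 log2 and Dpysl4, a collapsin response mediator, at -2.43. Eye against diencephalon/hypothalamus gave 2 higher (5.71%, beside 11.2% of all genes) and 12 lower (34.3%, beside 8.11%). The lowest were Rnd1 (-4.10 log2), a GTPase that binds plexins, and Crmp1 (-4.01 log2), a semaphorin signalling protein. Of the other ligands, receptors and adhesion partners 8 of 21 were lower in RAX-positive cells after SAG (38.1%, beside 10.6% of all genes) and 0 higher (beside 4.17%). Among the lower ones were the adhesion receptors Dscam (-3.01 log2), Chl1 (-1.86), Cntn2 (-1.76, as a bound), Cntn1 (-1.73) and L1cam (-1.41). Cntn2 was not well above background in these RAX-positive cells. Against the Wi control 13 of 22 were lower in RAX-positive cells after activin (59.1%, beside 13.4% of all genes) and 14 in RAX-negative cells (63.6%, beside 17%), with Chl1 at -6.53 and -6.26 log2. Both SAG populations also had many lower than the Wi control. These were 12 of 22 in RAX-positive cells (54.5%, beside 19.3% of all genes) and 10 in RAX-negative cells (45.5%, beside 14.2%). Not all pairs of arrays are described here for these lists. Neuron markers of the pairs described are given above, and their part in these values was not tested.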

How the data were processed

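Total RNA was hybridized to single-colour Agilent arrays, 1 for each of 8 groups. Per the file headers, the authors scanned them with Agilent Feature Extraction 10.7.3.1 and placed probes on mm9, whereas limma, with no version, and version 9.1 of that software stand in the submitters' processing notes. The deposited scanner intensity is background-subtracted within an array and not scaled between arrays. The deposited value table holds log2 values that the authors normalized between arrays, and the background step is not given in the sources used here.

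Outlier and control spots were left out, repeated spots averaged, and log2 signals taken relative to the 75th percentile of the array, with Python 3.11.15, numpy 2.4.6 and pandas 2.3.3. Well above background is the call of the scanner software, and its signal error gave the error of a difference. The rule of size (1 log2) stands in for a test, and the precision is limited by 1 array a group. Its check on simulated data used 1 array copied onto itself, with shifts larger than 1 log2 planted in bright probes. That checks the code and gives no error rate between different arrays. Alternatives were median scaling, quantile normalization, normexp background correction with offset 50 and quantile normalization (limma 3.58.1 in R 4.3.3), the authors' value table, stricter detection, the mean over probes, and, chosen after seeing the data, leaving out probes with a simple repeat. Stricter detection meant well above background on both arrays, or above the 95th percentile of the odorant and vomeronasal receptor genes.

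Every guidance gene could be named. Those given with a fold are the 6 called genes with the largest differences in each direction of a comparison, genes called in both gate comparisons, and the widest-ranging genes of each family, apart from members named in a family count or for their probes, which were chosen after their values were seen. The genes and lists were chosen with earlier results of these data known. The array of the Wi control carries an older annotation, in which 10 of the 101 probes have another name. Of the probes, 262 with outlier spots alone on an array were left out.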

Additional observations from a re-analysis of the deposited data

Results flagged for a closer look

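The gate gave opposite differences after activin and after SAG for 5 genes, at least 1 log2 in size each time, with 1 array a population. The difference between the treatments was not tested, since there are no replicates. Epha3 was higher in RAX-positive cells by 1.32 log2 after activin and differed by -2.38 after SAG. For Epha4 the values were 1.16 and -1.67, for Sema4f 1.50 and -2.06, and for Sema5b 1.21 and -1.12. Epha2 had the opposite order, with -1.14 after activin and 2.41 after SAG. Of all 25750 genes tested in both gates, 1.57% were called in opposite directions.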

How the results depend on the processing

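No paired analysis was possible because each group has 1 array and the labels carry no replicate numbers. No named difference turned its direction under the alternatives that could test it, but some summaries did. With median scaling the median of the guidance genes went from 0.05 to -0.34 log2 in the gate after activin, from 0.04 to -0.43 between eye and cortex and from -0.25 to 0.06 between cortex and diencephalon/hypothalamus. The median between eye and cortex was also below 0, at -0.06, -0.03 and -0.03, with both stricter detections and with the mean over probes. Activin against SAG in RAX-positive cells went from 11 higher and 10 lower to 9 and 14 with median scaling, 8 and 10 with normexp and quantile normalization and 9 and 10 in the authors' value table. Median scaling changed 3 counts of called genes by more than 1.5 times: those higher in RAX-positive cells after activin went from 8 to 2, those higher after activin than after SAG in RAX-negative cells from 9 to 20, and those higher in cortex than in diencephalon/hypothalamus from 6 to 13. Genes with opposite gate calls went from 5 to 2 with median scaling, 2 with normexp and quantile normalization and 3 in the authors' value table, and genes with the same gate call after both treatments from 5 to 2 with normexp. All other totals over the whole set of guidance genes stayed within 1.5 times of the reported ones, also with repeat probes left out, where 66 of the 69 genes had a probe. Counts within a family or of a single gate pattern changed more in places. Genes higher in RAX-positive cells after activin and lower after SAG went from 4 to 1 with median scaling, and to 1 with normexp and quantile normalization. Of 143 named differences, 118 were called under every alternative that could test them. Signals near background limit Robo4, Epha6, Epha10, Plxnb3, Sema3d, Unc5d and Ntn5, which were not well above background on some arrays. A fold of these genes against such an array is a bound. With 1 array a group no spread between cultures or embryos can be given.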
